A study of Mastomys natalensis with 3 samples.

Results

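The genes described here are the major histocompatibility complex (MHC), leukocyte, cytokine and complement genes of a rat expression array that was hybridised with gastric RNA of the African rodent Mastomys natalensis. The rule uses gene symbols and no measured value, although the group was proposed with earlier results of these data known. The symbols were those that start with RT1- (the rat MHC), Fcgr, Fcer, Ccl, Cxcl or C1q, or with Cd or Il followed by a digit, and also Ptprc, Csf1r, Itgam, Itgal and Itgb2. Cd63 and the manufacturer's control probe sets were left out. The rule found 161 probe sets of 102 genes, out of 7006 probe sets of 4736 genes that carried 1 gene symbol and 8740 non-control probe sets in all. A further 12 probe sets with a matching symbol carried several symbols and were left out. Itgal, Itgb2, C1qa, Cd3e, Cd68 and Cd163 had no singly named probe set and are not analysed here.

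The study measured total RNA of 3 cell preparations in which enterochromaffin-like (ECL) cells had been enriched. These endocrine cells release histamine in the acid-producing stomach. The first came from animals given loxtidine, a histamine H2 receptor antagonist, for 8 weeks. The second came from animals given the same drug for 16 weeks, and the third from animals in which an ECL cell carcinoid of the stomach had arisen spontaneously. No untreated group was used here, and each group is 1 array. Strain, age and the number of animals pooled are not given in the labels, the source is labelled ECL cells for the 8-week array and mucosa for the others, and each array carries a lot label of its own. With 1 array per group, no test of a difference was possible. Lot, array and group cannot be told apart, and no value below has an error between animals.

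MHC class I molecules display peptides from inside most cells to CD8 T cells, whereas class II molecules display peptides from ingested material to CD4 T cells and are made mainly by dendritic cells, macrophages and B cells. C1q starts the classical complement cascade, Fc receptors bind the constant part of antibodies, and chemokines and interleukins draw in and instruct leukocytes. In the gastric mucosa these genes are known mostly from the leukocytes of the lamina propria, although epithelial cells also make class I molecules, the neonatal Fc receptor and many of the numbered Cd surface proteins.

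Values are normalized intensities, given for the 8-week, the 16-week and the carcinoid array in that order. The floor was 12.4, the median of all normalized values of non-control probe sets. A fold is given where both arrays reached the floor, a bound (at least so many fold) where 1 array did, and none where neither did. A difference of at least 2-fold was counted. Because rat probes met Mastomys RNA, each probe set is set only against itself on another array, and levels are not compared between genes. In a mixed preparation, fewer cells of a type and less RNA per cell cannot be told apart.

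Several facts of the whole series touch these results. The 2% trimmed mean of the deposited intensity was 18.1, 25.5 and 27.6 on the 3 arrays. The 3' to 5' signal ratio of the Gapdh control probe sets, a measure of RNA integrity, was 8.95, 1.43 and 2.31, and that of beta-actin was 16.1, 6.71 and 11.7. Both were highest at 8 weeks, with the carcinoid close to 16 weeks for Gapdh and midway for actin. Bacterial control probe sets read 261, 112 and 84 (BioB-3), 774, 424 and 252 (BioC-5) and 426, 213 and 172 (BioDn-5). As deposited they read 168.7, 119.3 and 100.4, then 486.1, 446.8 and 321.3, and 294, 233.7 and 211. Normalization thus widened their gap to the 8-week array. How far it raised 8-week readings below was not tested. Of 10 listed ECL cell markers, 8 were found, and 5, 6 and 5 of these genes reached the floor. Their sum over the brightest probe set per gene was 221, 230 and 122, and 3 of 5 measured probe sets (Cckbr, Chgb and Syp) were at least 2-fold lower in the carcinoid than at 8 weeks, against 11.3% of all probe sets. Hdc, which makes histamine and defines the cell, was below the floor on all 3 arrays at 4.43, 4.77 and 3.2. Slc18a2, the vesicular monoamine transporter, read 21.8, 42.3 and 23.2 on one probe set, and its other was below the floor. The gastrin receptor gene Cckbr read 74.3, 56.5 and 35.2 on one probe set and 2.57, 33.4 and 2.83 on another. Chga was not analysed here. The part that RNA integrity or cell makeup played in the results below was not tested.

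Member probe sets reached the floor slightly less often than the array as a whole. The floor was reached by 77, 65 and 69 of the 161 member probe sets, or 47.8%, 40.4% and 42.9%, against 50%, 50.1% and 50% of all non-control probe sets. At a stricter floor of 30, the 75th percentile of all non-control values, the counts were 34, 29 and 27 (21.1%, 18% and 16.8%, against 25%, 25.1% and 25%). The median member value was 10.5, 8.5 and 9.67, under the floor on every array. In all, 108 probe sets (67.1%, against 70.8% of all) reached the floor on at least 1 array. They belonged to 83 of 102 genes, against 3665 of 4736 genes on the array. On all 3 arrays, 38 probe sets of 32 genes did so, which is 23.6% of the members against 30.5% of all probe sets. Another 53 probe sets stayed below the floor throughout, and 19 genes had no probe set above it on any array. For scale, 8, 9 and 9 of 38 control probe sets taken as having no intended target in the sample reached the floor. Of them, 5, 0 and 3 reached 30. The controls include mouse Il2, Il4, Il10 and Fas probe sets, which are not free of a possible target. Those of Il10 and Il4, at 18.9 and 14 in the carcinoid, were among the 9 at the floor there. A value near the floor therefore does not separate a member from such controls.

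Among the 108 member probe sets that reached the floor, 52 (48.1%) were highest at 8 weeks, 28 (25.9%) at 16 weeks and 28 (25.9%) in the carcinoid. The shares over all probe sets were 37.4%, 30.3% and 32.4%. On the intensities as deposited, without normalization, the split was 29, 39 and 40 (26.9%, 36.1% and 37%, against 22.2%, 34.5% and 43.3% of all), so the array that most often read highest depends on the scaling, while the members' 8-week share was above that of all probe sets on both scales.

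At 16 weeks against 8 weeks, 2 of the 48 members with both values at the floor exceeded 2-fold upward, namely Cxcl6, a neutrophil-attracting chemokine, and RT1-M5, a non-classical class I gene. The share was 4.17%, against 10.8% of all probe sets. Another 4 (8.33%, against 9.86%) were at least 2-fold lower, 1 probe set each of the chemokine Ccl20, the B cell protein Cd72, the CD8 beta chain Cd8b and the class II beta chain RT1-Bb. With a bound on 1 side, 5 of 46 (10.9%, against 17.8%) were at least 2-fold higher, from Cd24, Cd82, Cd8a, Cd9 and RT1-DMa. In the other direction 10 of 46 (21.7%, against 17%) were at least 2-fold lower, from C1qb, Cd37, Cd3d, Cd4, Cd74, Cd86 (2 probe sets), Cxcl2, Il18 and Il1r1. As deposited, 3 of 48 were higher and 1 lower, against 19.7% and 3.97% of all probe sets.

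For the carcinoid against 8 weeks, 3 of 48 members (6.25%, against 11.8%) were at least 2-fold higher, from Cd82, Fcgrt and RT1-M5. Lower by at least 2-fold were 5 of 48 (10.4%, against 11.3%), from C1qb, Ccl2, Cd14, Cd3g and RT1-Ba. Bounds added 6 of 50 higher (12%, against 18.2%), from Ccl4, Cd24, Cd82, Cd9, Il12b and RT1-M3-1. They added 9 of 50 lower (18%, against 17.2%), from Cd3d, Cd4, Cd74, Cd86, Cd8b, Cxcl2, Fcer2, RT1-Bb and RT1-S3. As deposited, 8 of 51 were higher and 2 lower, against 25.4% and 3.63% of all.

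For the carcinoid against 16 weeks, 3 of 45 members (6.67%, against 7.01%) were at least 2-fold higher, from Cd82, Il12b and Il1rl1. The 4 lower ones (8.89%, against 6.25%) came from Cd14, Cd9, Fcgrt and RT1-Ba. Of 44 bounds, 1 was at least 2-fold higher (2.27%, against 13.1%), from Fcgrt, and 4 were lower (9.09%, against 15%), from Cd8a, Fcer2, RT1-DMa and RT1-S3. In most of these counts the members' share was near or below that of the whole array. The members' share was above it only for the bounds that were lower at 16 weeks or in the carcinoid against 8 weeks and for the measured values lower in the carcinoid against 16 weeks.

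**Figure D1:**
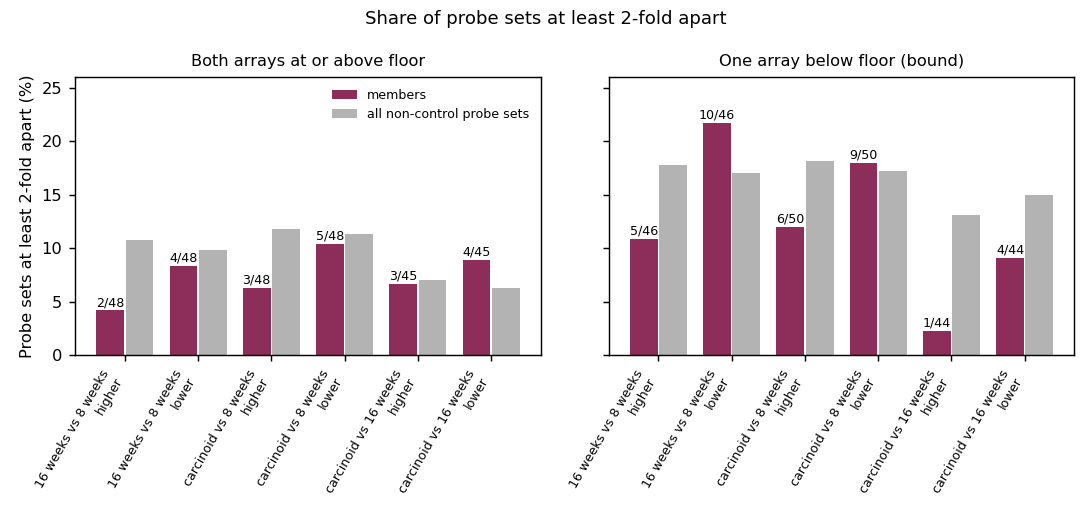
Bars give the percentage of member probe sets (purple, with the count above each bar) and of all non-control probe sets (grey) at least 2-fold apart, for each comparison and direction. The left panel holds probe sets at or above the floor on both arrays and the right panel those with 1 array below it; 9 of the 12 member bars are lower than the grey bar beside them.

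The median log2 difference of the members was -0.21 at 16 weeks against 8 weeks, with 18 above 0 and 30 below, beside -0.01 for all probe sets. It was -0.24 for the carcinoid against 8 weeks, with 16 above and 32 below, beside -0.04. Both comparisons use the same 8-week array. For the carcinoid against 16 weeks it was -0.09, with 22 above and 23 below, beside 0.01. As deposited, the medians were 0.18, 0.29 and -0.01, beside 0.39, 0.45 and 0.10 for all probe sets, so the sign turned in both comparisons with the 8-week array. The members' median minus that of all probe sets was -0.20, -0.20 and -0.10 after normalization and -0.21, -0.16 and -0.11 as deposited. The members also spread less than the array as a whole, with an SD across probe sets of 0.59, 0.73 and 0.58 on the log2 scale beside 0.85, 0.88 and 0.68. Individual small differences share this limit: 16 of 48 and 18 of 48 measured differences against 8 weeks had the other sign as deposited, the largest of them 1.51-fold and 1.53-fold, and 0 of 45 did so for the carcinoid against 16 weeks. All 56 differences or bounds of at least 2-fold kept their direction as deposited and after scaling each array by its median. No measured difference above 1.53-fold turned as deposited, so those of at least 2-fold had little room to turn.

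**Figure D2:**
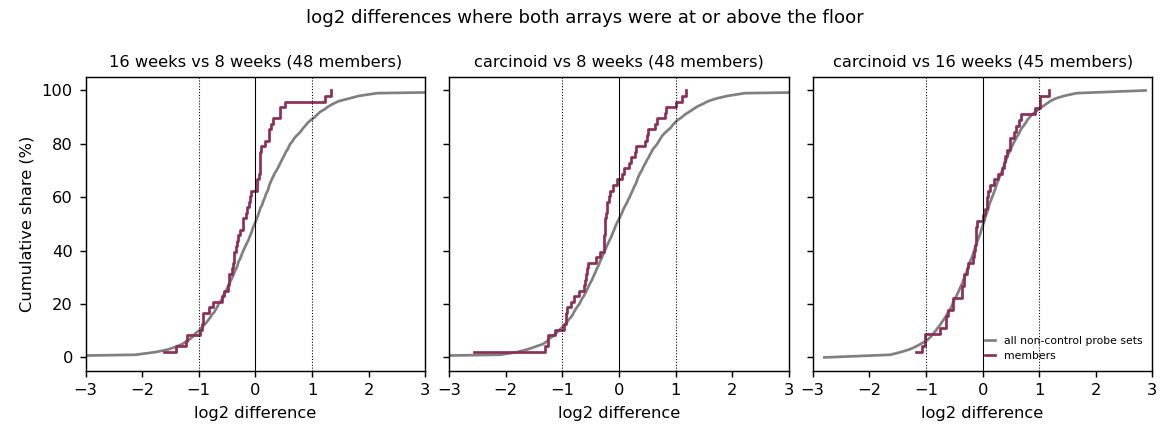
Cumulative share of probe sets (%) against the log2 difference in each comparison, for members (purple steps) and all non-control probe sets (grey), among those at or above the floor on both arrays; dotted lines mark 2-fold. The member curve lies to the left of the grey one around 0 in both comparisons with the 8-week array, where the members' medians are -0.21 and -0.24.

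The members' largest differences were in single probe sets. C1qb, the B chain of the complement starter C1q and a macrophage product, read 92.0, 3.57 and 15.6. It was high on the 8-week array only. The gap was at least 7.42-fold to 16 weeks and 5.88-fold to the carcinoid, the one measured difference of 4-fold or more among the members. The second C1qb probe set was below the floor on all 3 arrays at 3.3, 2.57 and 2.57. C1qc, the C chain of the same molecule, read 64.7, 44.0 and 57.1, at most 1.47-fold apart in any comparison, and its other 2 probe sets were below the floor. The gap in C1qb was thus not matched by the chain it is assembled with. Of the genes named after C1q that are not subunits, C1qtnf6, a secreted relative, read 49.9, 25.2 and 26.5, and C1qbp, a mitochondrial protein that binds C1q, read 3.55, 9.33 and 13.1.

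The Fc receptors did not move as a group. Fcer2, the low-affinity IgE receptor of B cells, read 64.3, 48.2 and 11.1. Both loxtidine arrays were above the floor and the carcinoid array was below it, at least 5.18-fold lower than 8 weeks and at least 3.89-fold lower than 16 weeks. At the stricter floor those bounds became at least 2.14-fold and 1.61-fold. Fcer1a, the IgE-binding chain of the mast cell receptor, read 18.8, 16.2 and 3.13, and its other probe set was below the floor. Fcgr2b, the inhibitory IgG receptor, read 3.03, 12.6 and 3.77, touching the floor at 16 weeks.

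Fcgrt, the neonatal Fc receptor that carries IgG across epithelia, had 3 probe sets above the floor, and they did not give 1 order. The brightest read 137, 72.2 and 91.2, highest at 8 weeks. The second read 46.0, 61.8 and 30.4, highest at 16 weeks and 2.03-fold lower in the carcinoid than there. The third read 17.1, 3.23 and 34.4, highest in the carcinoid, 2.01-fold above 8 weeks. No direction can be given for the gene.

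Class I genes were among the better measured members, with 9 of 11 probe sets at the floor on some array and 5 on all 3. The classical class I gene RT1-A read 69.6, 61.9 and 98.3, so that the carcinoid was 1.41-fold and 1.59-fold above the other arrays. RT1-CE16 and RT1-CE12, class I genes of the RT1-C/E region, went the other way. RT1-CE16 read 174, 116 and 118, and RT1-CE12 read 105, 59.7 and 68.6. The 16-week and carcinoid arrays were alike for both genes, and the 8-week array was 1.47-fold to 1.76-fold higher. As deposited, that gap turned sign for RT1-CE16 in both comparisons and for RT1-CE12 in the carcinoid. The probe sets of RT1-A, RT1-CE12 and RT1-CE16 are of the kind designed to match a sequence family, so these 3 genes share signal to an unknown extent.

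Non-classical class I genes, which show little polymorphism, split. RT1-M5 read 21.1, 49.7 and 45.8, 2.35-fold and 2.17-fold above 8 weeks. RT1-M3-1, whose product presents formylated peptides, read 8.77, 21.7 and 28.4, with the carcinoid at least 2.29-fold above 8 weeks. Its other probe set was below the floor. RT1-S3 was level on its brightest probe set at 38.4, 40.7 and 44.5. A second RT1-S3 probe set read 27.6, 28.8 and 11.1, at least 2.23-fold lower in the carcinoid than at 8 weeks, and the last read 1.0, 11.8 and 14.8. RT1-A3 read 3.3, 2.27 and 18.9, and RT1-N3 was below the floor on all arrays. The median class I log2 differences were -0.06 (of 6), 0.21 (of 5) and 0.16 (of 6) in the 3 comparisons.

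**Figure D3:**
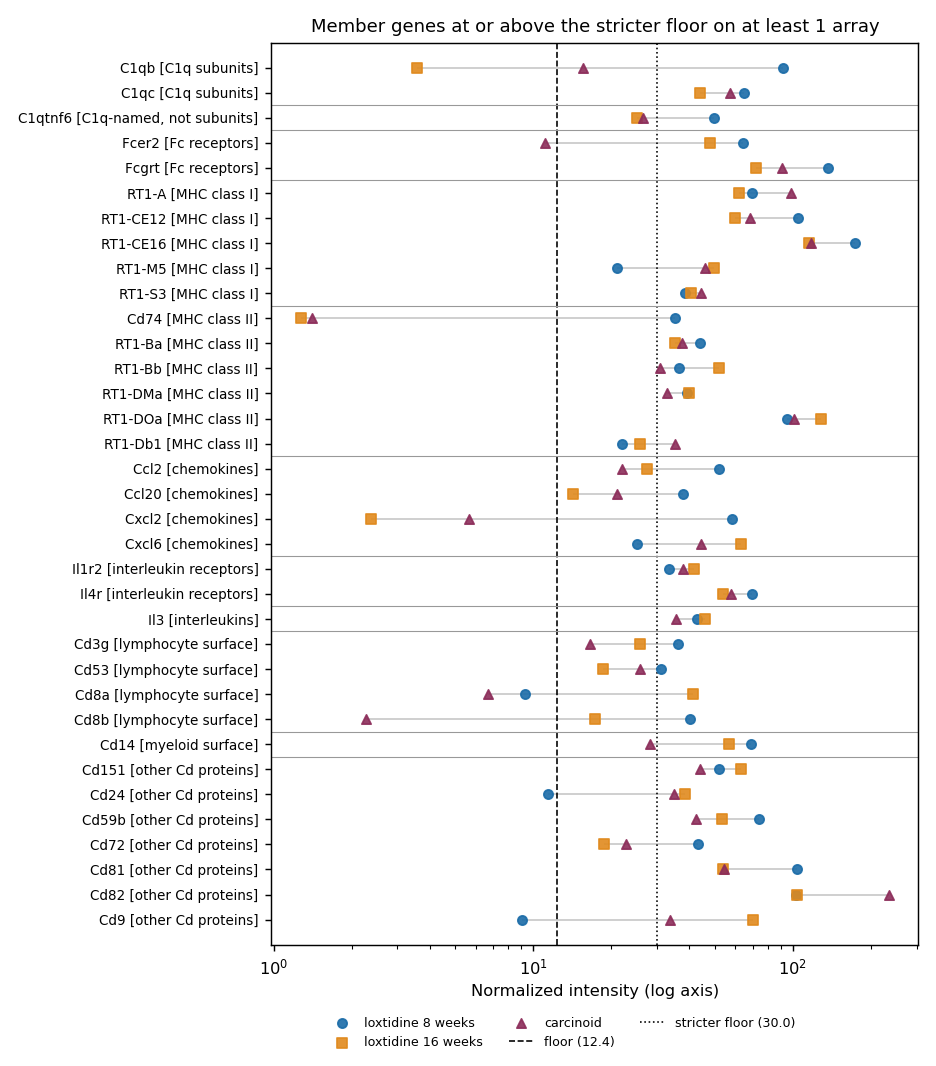
Normalized intensity (log axis) on the 8-week (circle), 16-week (square) and carcinoid (triangle) array for the 35 member genes with a probe set at 30 or more on any array, by role, with the brightest such probe set per gene. The grey line spans the 3 values; most genes lie within 2-fold, and C1qb, Cd74, Cxcl2, Cd8b and Cd9 have the longest lines.

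MHC class II was measured by 24 probe sets of 10 genes, of which 13, 10 and 8 reached the floor on the 3 arrays and 7 on all 3. Median log2 differences were -0.07 (of 9), -0.24 (of 8) and -0.28 (of 7). Cd74 is the invariant chain that chaperones class II molecules. Its brightest probe set read 35.3, 1.27 and 1.4, at least 2.85-fold lower on both other arrays, and only at least 1.18-fold lower at the stricter floor. A companion probe set from the same sequence record read 20.7, 2.57 and 2.73, in the same order, and the other 2 were below the floor throughout.

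The class II chains that Cd74 escorts did not show that gap together. RT1-Ba, the alpha chain of RT1-B, read 44.0, 35.3 and 37.4 on its brightest probe set and 33.2, 28.7 and 40.4 on the second. Its last read 34.4, 32.4 and 14.4, with the carcinoid 2.39-fold and 2.25-fold lower than the other arrays. RT1-Bb, the partner beta chain, had 5 probe sets. Of the 2 that reached the floor, one read 36.3, 51.9 and 30.9 and the other 44.2, 14.5 and 7.2. At 16 weeks the first was 1.43-fold higher and the second 3.05-fold lower than at 8 weeks, opposite directions for the same gene.

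The RT1-D chains, the rat counterpart of HLA-DR, were dim. RT1-Da, the alpha chain, read 22.0, 11.3 and 17.5 on one probe set and was below the floor on the other. RT1-Db1, the beta chain, read 22.0, 25.9 and 35.1 on one probe set, highest in the carcinoid, and 23.5, 22.4 and 10.2 on its companion, lowest there. RT1-Ha, an alpha chain gene, reached the floor only at 8 weeks with 17.4, 3.4 and 1.5.

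RT1-DM loads peptide onto class II and RT1-DO restrains it. RT1-DMa read 39.0, 40 and 32.8 on its brightest probe set, level across arrays. Its other probe set read 5.17, 37.8 and 7.43, high only at 16 weeks, at least 3.05-fold above both other arrays and at least 1.26-fold at the stricter floor. All 3 probe sets of the partner RT1-DMb were below the floor. RT1-DOa read 94.9, 129 and 101, at most 1.36-fold apart, and its partner RT1-DOb was below the floor.

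**Figure D4:**
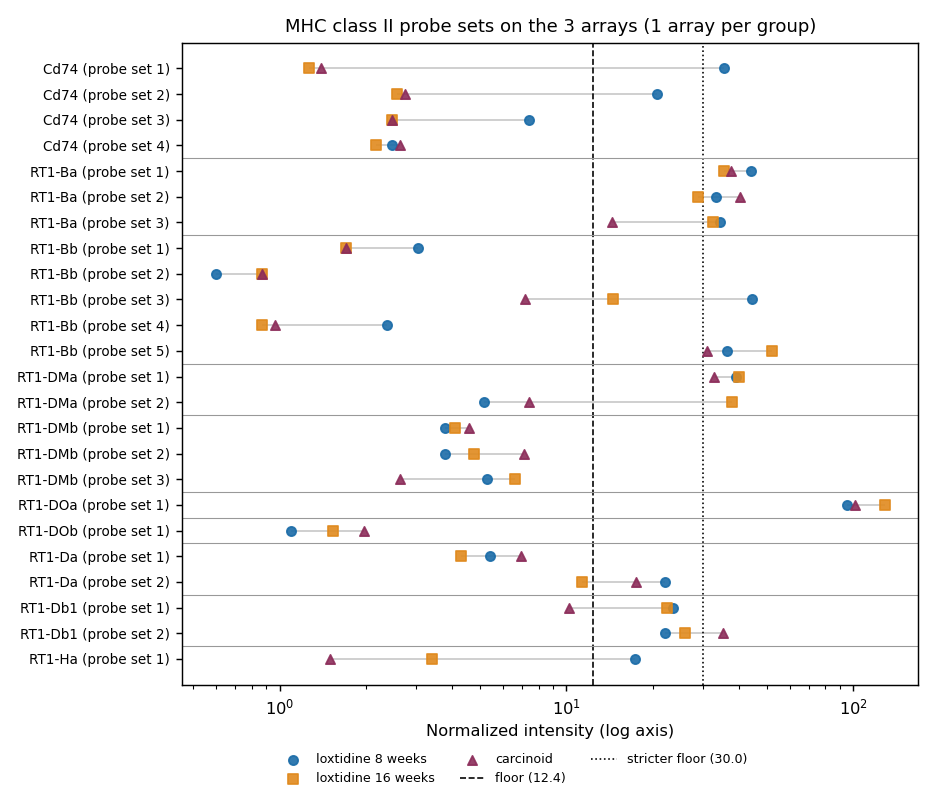
Normalized intensity (log axis) of all 24 MHC class II probe sets on the 8-week (circle), 16-week (square) and carcinoid (triangle) array, grouped by gene; dashed and dotted lines mark the floors of 12.4 and 30. Cd74 is high at 8 weeks on its first and second probe set, while probe sets of RT1-Bb, RT1-DMa and RT1-Db1 give different orders of the arrays within a gene.

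Chemokines differed in both directions. Cxcl2, which draws neutrophils, read 58.1, 2.37 and 5.67, above the floor at 8 weeks only and at least 4.68-fold lower on both other arrays (at least 1.94-fold at the stricter floor). Ccl2, which draws monocytes, read 52.0, 27.5 and 21.9, 1.89-fold and 2.38-fold lower than at 8 weeks, and its other probe set was below the floor. Ccl20, which draws cells bearing Ccr6, read 37.9, 14.2 and 21.0, 2.66-fold lower at 16 weeks and 1.81-fold lower in the carcinoid.

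Other chemokines ran opposite to these. Cxcl6 read 25.1, 63.2 and 44.2, 2.51-fold above 8 weeks at 16 weeks and 1.76-fold above it in the carcinoid. Ccl4, a macrophage inflammatory protein, read 4.8, 18.4 and 28.6, with the carcinoid at least 2.31-fold above 8 weeks. Cxcl10, induced by interferon, was nearly level at 21.1, 19.1 and 16.0. Cxcl13, which draws B cells, reached the floor only at 8 weeks with 15.1, 1.7 and 2.93. The epithelial chemokine Cxcl14 read 13.5, 14.4 and 1.27 on one probe set and was below the floor on its companion. Ccl3, Ccl5, Ccl11 and Cxcl3 stayed below the floor.

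Interleukins were close to the floor almost throughout. Of 27 probe sets of 15 interleukin genes, 16 reached the floor on some array, 3 did so on all and 1 exceeded 30. Il3, a growth factor of mast cells and other myeloid cells, was that one at 42.8, 45.8 and 35.6, while its second probe set read 17.4, 12.6 and 23.9, with the arrays in the reverse order. Il15, which sustains natural killer and memory T cells, was level at 19.7, 20.8 and 19.4. Il18, an inducer of interferon gamma, read 28.7, 11.7 and 17.5, with 16 weeks at least 2.31-fold below 8 weeks. Il12b, a subunit of interleukins 12 and 23, read 11.0, 13.1 and 26.5, 2.02-fold higher in the carcinoid than at 16 weeks. The other probe sets of Il15, Il18 and Il12b were below the floor on every array.

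The inflammatory interleukins gave no steady order. Il1b read 4.93, 1.9 and 20.4 on one probe set and 14.4, 2.47 and 6.03 on another. Il1a, its relative, read 7.7, 13.3 and 3.5 on one probe set and 19.4, 1.27 and 2.83 on another. Il6 read 12.7, 11.4 and 1.8 on one probe set and 2.93, 10.5 and 21.0 on another. In each of these genes different probe sets had different arrays on top. The anti-inflammatory Il10 read 17.0, 3.93 and 1.63 on one probe set and 4.03, 1.7 and 20.8 on another. Il33, an epithelial alarmin, read 18.8, 7.43 and 8.5, and Il9 read 5.27, 16.8 and 1.7. Il4 read 7.8, 13.3 and 8.8 on one probe set and was below the floor on the other. Il2, Il5, Il7 and Il13 stayed below the floor.

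Among interleukin receptors, 4 of 18 probe sets reached the floor on all arrays. Il4r, which receives interleukins 4 and 13, read 69.8, 54.0 and 58.0, and Il1r2, the decoy receptor for interleukin 1, read 33.5, 41.8 and 37.7, so neither was as much as 1.5-fold apart. Il1rl1, the receptor of Il33, read 17.9, 13.9 and 27.9, 2.01-fold higher in the carcinoid than at 16 weeks. Its other probe set was below the floor. The signalling receptor Il1r1 read 26.1, 2.57 and 23.3 on one probe set and 23.2, 18.4 and 5.77 on a second, and another was above the floor at 8 weeks only, with 13.3, 5.93 and 9.87. Its partner Il1rap read 24.1, 18.3 and 16.3 on one probe set and 15.7, 3.03 and 22.4 on a companion. Il2rb read 23.6, 8.5 and 10, Il7r 1.27, 2.57 and 17.9, Il9r 4.43, 16.1 and 1.97, and Il6st 1.27, 13.9 and 1.27, each above the floor on 1 array. Il2ra, Il6r and the receptor antagonist gene Il1rn were below it.

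Lymphocyte surface genes were the role group with the most bounds lower than at 8 weeks. Of 21 probe sets, 10, 5 and 8 reached the floor. At 16 weeks 5 of 9 bounds were at least 2-fold lower and 1 higher, against 17% and 17.8% of all bounds on the array. In the carcinoid 4 of 6 were lower and 0 higher, against 17.2% and 18.2%. The lower bounds at 16 weeks came from Cd37, Cd3d, Cd4 and both probe sets of Cd86. All had 8-week values under 30, so none could be compared at the stricter floor. Those in the carcinoid came from Cd3d, Cd4, Cd86 and Cd8b, and only Cd8b kept a bound there, at least 1.34-fold. Cd86 is also a marker of antigen-presenting cells. The T cell receptor chain Cd3d read 26.4, 4.3 and 3.5, at least 2.13-fold lower on both other arrays. Cd3g, another chain of the complex, read 36.1, 25.8 and 16.5, 1.4-fold and 2.18-fold lower, and its other probe set was below the floor. Cd247, the zeta chain, read 15.1, 1.63 and 18.6, with 8 weeks and the carcinoid alike.

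The T cell co-receptors did not share 1 order. Cd4, of helper cells, read 24.9, 7.63 and 6.47, at least 2.01-fold lower on both other arrays. Cd8b read 40.3, 17.3 and 2.27, and 8 weeks exceeded 16 weeks 2.33-fold and the carcinoid at least 3.25-fold. Cd8a, the chain that pairs with it, read 9.27, 41.2 and 6.7, above the floor only at 16 weeks, where Cd8b was not highest. Of B cell genes, Cd37 read 26.3, 6.4 and 13.5, Cd79b 17.2, 4.53 and 16.1, and Cd72 43.1, 18.7 and 22.7. These 3 were highest at 8 weeks and lowest at 16 weeks, but Cd79b was highest in the carcinoid as deposited. Fcer2, also of B cells, was instead lowest in the carcinoid.

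The costimulatory ligand Cd86 read 27.5, 11.3 and 23.8 on one probe set and 28.3, 2.0 and 2.73 on a companion from the same record. Both put 16 weeks at least 2.22-fold and 2.28-fold below 8 weeks, but in the carcinoid only the second was low. Cd53, a tetraspanin of all leukocytes, read 31.0, 18.6 and 25.8. It was 1.67-fold lower at 16 weeks than at 8 weeks, and 1.2-fold lower in the carcinoid, the latter with the other sign as deposited. Cd40 read 9.43, 21.1 and 6.6, Cd2 3.3, 1.7 and 14.6, and Cd5 1.0, 3.67 and 15.6 on one probe set. The other Cd5 probe set was below the floor at 9.7, 5.87 and 4.4, in the reverse order. Cd28, Cd40lg, Cd48, Cd52 and Cd80 were below the floor.

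The general leukocyte and macrophage genes were dim, and none of their 5 probe sets reached 30. Ptprc, the CD45 antigen of all nucleated blood cells, read 16.0, 13.0 and 6.6 on its one probe set above the floor, and 2 others were below it. Csf1r, the macrophage growth factor receptor, read 10.5, 8.3 and 21.7, above the floor in the carcinoid only. Itgam, an integrin of myeloid cells, read 20.6, 2.93 and 1.8, above the floor at 8 weeks only. Cd14, the lipopolysaccharide co-receptor of monocytes, was better measured. It read 69.2, 56.9 and 28.2, with the carcinoid 2.45-fold and 2.02-fold lower than the loxtidine arrays, while its second probe set was level at 29.7, 27.4 and 25.7.

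Of Cd proteins that many cell types make, Cd82, Cd9 and Cd24 each had probe sets at least 2-fold apart. Cd82, a tetraspanin studied as a metastasis suppressor, read 103, 104 and 235, with the carcinoid 2.28-fold and 2.25-fold higher and the loxtidine arrays equal. The companion probe set from the same sequence record read 4.03, 38.6 and 25.2, so that the carcinoid was 1.53-fold lower than 16 weeks there. Cd9, another tetraspanin, read 9.05, 70.4 and 33.6. It was at least 5.68-fold higher at 16 weeks and at least 2.71-fold higher in the carcinoid than at 8 weeks, and its companion read 20.6, 24.3 and 36.6, in a different order. Cd24, a mucin-like protein of epithelial and B cells, read 11.4, 38.5 and 34.9, at least 3.1-fold and 2.81-fold above 8 weeks. Its 2 further probe sets read 16.2, 3.57 and 10.3, and 2.57, 16.1 and 1.27.

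Other tetraspanins and membrane regulators varied less. Cd81 read 104, 53.8 and 54.2 on one probe set and 41.3, 46.4 and 42.8 on its companion, so only the first put 8 weeks higher. Cd151 read 52.1, 63.3 and 43.9. Cd59b, an inhibitor of complement lysis, read 73.9, 53.4 and 42.5, 1.38-fold and 1.74-fold lower than at 8 weeks, the first with the other sign as deposited. Of the other guards against complement, Cd46 read 1.27, 3.77 and 14.3 and Cd55 3.13, 3.67 and 15.3, each just above the floor in the carcinoid only. Cd47, a signal against phagocytosis, read 1.5, 24.5 and 15.7, and the adhesion receptor Cd44 read 23.9, 4.93 and 12.2. Cd36, a fatty acid receptor, read 15.4, 1.4 and 2.73, Cd200 read 7.92, 2.17 and 16.3, and the lipid-presenting Cd1d1 read 17.7, 18.8 and 10.7. All other probe sets of Cd55, Cd47, Cd44 and Cd36 were below the floor.

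Probe sets of the same gene were the only internal measure of error. Of the 40 genes with several probe sets, in 24 some probe sets reached the floor on at least 1 array and others never did, in 15 every probe set reached it on at least 1 array, and in 1 none did. Among 25 pairs of probe sets made from the same sequence record, both reached the floor in 12, only 1 did in 10 and neither did in 3. Where the 2 brightest probe sets of a gene could both be measured, their log2 differences had the same sign in 3 of 8 genes at 16 weeks against 8 weeks, in 2 of 6 for the carcinoid against 8 weeks and in 2 of 7 for the carcinoid against 16 weeks. Over the whole array the sign was the same in 217 of 410, 202 of 395 and 236 of 457 genes. The member pairs were more than 1 apart on the log2 scale in 3, 2 and 4 genes. Those shares were 37.5%, 33.3% and 57.1%, against 34.1%, 39.5% and 25.4% over the whole array. The spread between such pairs was 0.71, 0.58 and 0.86 on the log2 scale, beside 0.79, 0.82 and 0.62 over 410, 395 and 457 genes of the whole array. A single 2-fold difference is 1 on that scale and thus not far outside this spread, which holds no variation between animals.

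**Figure D5:**
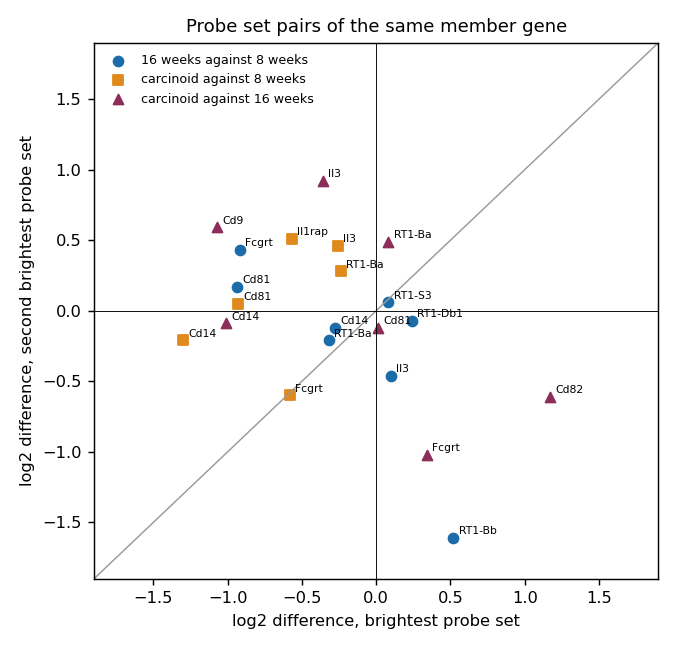
Log2 difference of the second brightest against the brightest probe set of a member gene, for pairs at or above the floor on both arrays; circles are 16 weeks against 8 weeks, squares the carcinoid against 8 weeks and triangles the carcinoid against 16 weeks. Points on the diagonal would be equal; Cd82, Cd9, Fcgrt, Il3 and RT1-Bb lie in the quadrants of opposite sign.

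At the stricter floor of 30, fewer members could be compared. At 16 weeks against 8 weeks, 0 of 22 measured members were 2-fold apart, against 7.93% of all probe sets higher and 6.87% lower. Of 19 bounds there, Cd9 and Cxcl6 were higher and C1qb lower, against 6% and 5.41%. In the carcinoid against 8 weeks, Cd82 was higher and none lower of 20 measured, against 9.53% and 8.24%. Of 21 bounds, 0 were higher and those of C1qb, Cd14 and Fcer2 were lower, against 6.78% and 6.01%. In the carcinoid against 16 weeks, Cd82 was higher and Cd9 and 1 probe set of Fcgrt lower, out of 23 measured, against 2.71% and 2.96%, and 0 of 10 bounds were 2-fold apart, against 3.11% higher and 2.93% lower. Of 21 measured differences of at least 2-fold, 17 had their dimmer value under 30.

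Summed over the brightest probe set per gene, marker lists of leukocyte types moved unequally. Macrophage markers (6 of 15 found) summed to 294, 148 and 148, and 5, 4 and 5 genes reached the floor. The brightest C1qb probe set alone gave 92.0, 3.57 and 15.6 of these sums, and Csf1r was highest in the carcinoid. T and natural killer cell markers (12 of 16 found) summed to 261, 203 and 142, with 7, 5 and 6 genes at the floor. Markers of antigen-presenting cells (6 of 8) summed to 187, 137 and 146 with 6, 3 and 5 genes, B cell markers (2 of 10) to 43.5, 10.9 and 29.6 with 2, 0 and 2, and mast cell markers (9 of 11) to 211, 175 and 155 with 5, 5 and 3. General leukocyte markers (5 of 9) summed to 58.9, 64.0 and 73.6 with 2, 3 and 2 genes. Of these, Ptpn6, a phosphatase of blood cells, read 3.03, 19.1 and 34.3 on one probe set and was below the floor on its other. Cd53 and the one Ptprc probe set above the floor were highest at 8 weeks after normalization only. As deposited, Cd53 (24.8, 19.7 and 28.8) was highest in the carcinoid and that Ptprc probe set (13.2, 13.8 and 7.3) at 16 weeks. The other Ptprc probe sets, below the floor, read highest in the carcinoid. Neutrophil markers (3 of 7) summed to 40.8, 29.4 and 25.2, with 1 gene at the floor on each array. As deposited, the macrophage sums were 222, 159 and 168 and the T and natural killer cell sums 206, 217 and 159. Those of antigen-presenting cells were 149, 147 and 165 and those of mast cells 158, 187 and 178, so of these 4 lists only the macrophage list was still highest at 8 weeks. The same C1qb probe set gave 67.1, 3.9 and 17.6 of the deposited macrophage sums, so the clear 8-week excess lay in that 1 probe set. The B cell sums (35.5, 11.8 and 33.2) and neutrophil sums (33.1, 31.4 and 27.8) were also highest at 8 weeks as deposited. The general leukocyte sums (48, 68 and 82.4) were highest in the carcinoid. Many of these markers are themselves members, so the sums restate the values above.

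Markers of other cell types of the stomach also gave signal. The chief cell marker Pgc read 4690, 4590 and 3720, parietal cell markers summed to 1210, 1590 and 1020, and surface mucous cell markers to 1180, 1020 and 1490. The mucous sum was mostly Tff1 at 1124, 831 and 1213, with Tff2 at 44.8, 19.3 and 65.6. Muc5ac was lowest at 8 weeks on both probe sets, at 15.8, 168 and 213 and at 12.4, 79.2 and 57.7. The parietal gene Atp4a read 966, 1449 and 903 on its brightest probe set and 4.2, 95.4 and 55 on another. Endothelial markers (6 of 6 found) summed to 139, 58.9 and 65.4, highest at 8 weeks like the macrophage list, with 3, 2 and 2 genes at the floor. Erythroid markers (2 of 3) summed to 78.1, 78.8 and 98.7. Their part in the members' values was not tested.

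Genes that work with the members were counted in the same way. Of 19 antigen processing genes, 11 were found and 10 reached the floor on some array. At 16 weeks 2 of their 16 measured probe sets were at least 2-fold higher and 2 lower than at 8 weeks, against 10.8% and 9.86% of all probe sets. In the carcinoid 2 of 15 were higher and 2 lower than at 8 weeks (against 11.8% and 11.3%), and 0 of 15 higher and 1 lower than at 16 weeks (against 7.01% and 6.25%). The higher ones were a probe set of Calr (15.8, 47.9 and 44.4) and one of Canx (49.5, 119 and 131). The brightest probe sets of these genes read 242, 225 and 200 for Calr and 880, 470 and 616 for Canx. The lower ones were of Psme1 and Ctss. Psme1, a proteasome activator subunit, read 274, 101 and 94.6 on its brightest probe set but 57.5, 75.1 and 68.4 on its companion. Ctss, the protease that trims Cd74, read 46.5, 13.1 and 22.2, highest at 8 weeks like Cd74 itself. Psmb8, an immunoproteasome subunit, read 47.8, 61.2 and 4.57, low in the carcinoid only. The peptide transporter genes read 24.9, 26.4 and 13.0 for Tap1 and 20.0, 35.9 and 30.6 for Tap2. B2m, the light chain that every class I molecule needs, was below the floor on all 3 arrays at 1.0, 6.63 and 1.07 on its one singly named probe set.

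The interferon response list had 14 of 21 genes, with 10 at the floor on some array. None of its 3, 4 and 3 measured probe sets was 2-fold apart. Of its 7, 4 and 7 bounds, 0, 1 and 1 were higher (against 17.8%, 18.2% and 13.1% of all) and 1, 1 and 0 lower (against 17%, 17.2% and 15%). Ifng, interferon gamma, was lower on both other arrays than at 8 weeks (32.0, 6.5 and 11.4) and Stat2 was higher in the carcinoid than on both others (4.2, 5.77 and 25.8). In the complement list beyond C1q, 15 of 28 genes were found and 11 reached the floor. Clu, clusterin, an inhibitor of the terminal complex, read 79.8, 96.8 and 19.2. C5ar1, the receptor for C5a, read 25.1, 66.4 and 70.5 on one probe set and 128, 91.9 and 57.4 on another, in opposite orders. Of 7 measured probe sets in each comparison, 1, 1 and 0 were at least 2-fold higher and 0, 2 and 1 lower, against 10.8%, 11.8% and 7.01% of all probe sets higher and 9.86%, 11.3% and 6.25% lower.

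Among chemokine and cytokine receptors, 11 of 18 genes were found, 6 reached the floor and 0 of 5, 4 and 7 measured probe sets were 2-fold apart. Of 4 bounds at 16 weeks and 5 in the carcinoid against 8 weeks, 2 were higher (against 17.8% and 18.2%) and 1 lower (against 17% and 17.2%) in each. Cxcr4, the receptor for Cxcl12, read 10.9, 30.7 and 27.4 and 7.03, 25 and 38.6 on its probe sets that reached the floor, both higher on the other arrays. Cxcr2, the receptor for Cxcl2 and Cxcl6, read 29.7, 6.8 and 2.93, above the floor at 8 weeks only. In the Jak-Stat list, 13 of 16 genes were found and 12 reached the floor. Socs3, a feedback inhibitor induced by cytokines, read 16.0, 71.1 and 14.9, and Stat5b read 37.5, 72.6 and 24.4. Both were highest at 16 weeks, Socs3 more than 4-fold above the others. At 16 weeks against 8 weeks 1 of 3 measured probe sets of this list was at least 2-fold higher and 0 lower, against 10.8% and 9.86% of all. Of 9 bounds there, 0 were higher and 3 lower (against 17.8% and 17%), from Stat5a (29.2, 3.93 and 7.43) and 2 probe sets of Ptpn11 (29.5, 6.27 and 3.3, and 26.7, 8.67 and 19.1). In the carcinoid against 8 weeks, 0 of 5 measured were 2-fold apart, and of 7 bounds 1 was higher and 2 lower (against 18.2% and 17.2%). Against 16 weeks, 2 of 5 measured were lower and 0 higher (against 6.25% and 7.01%).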

How the data were processed

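The authors deposited a linear intensity for each probe set on each of the 3 arrays. Which algorithm, background correction and scaling made these values is not given in the sources used here. Groups come from the sample descriptions. Gene symbols come from the platform annotation, and only probe sets with 1 symbol were named. The 3 arrays were quantile normalized over all 8799 probe sets, controls included, which hides any shift shared by most transcripts. Values were floored at 12.4, the pooled median of the 8740 non-control probe sets, and compared as log2. Python 3.11.15 with numpy 2.4.6 and pandas 2.3.3 was used, and the scripts were tested on simulated data. No replicate, depth or detection call was used, so no interval or test is given. Members and lists were chosen with earlier results of these data known. Genes named were, per comparison, the 8 largest measured differences and the 4 largest bounds each way, members reaching 30 on any array, a fixed set of leukocyte genes and up to 4 per related list; others are added by role. The brightest probe set of a gene has the highest mean deposited intensity. The alternatives were intensities as deposited, scaling by the median, floors at the 25th and 75th percentiles, log2 of value plus floor, 1 value per gene, and subsets of members or probe sets.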

Additional observations from a re-analysis of the deposited data

How the results depend on the processing

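No paired analysis was possible because each group is 1 array. For 16 weeks against 8 weeks, the count at least 2-fold higher (2 of 48) became 14 of 85 with the floor at the 25th percentile. It became 0 of 22 at the 75th and 7 of 161 with log2 of value plus floor. With only the probe sets derived from expressed sequence tags (EST) it was 0 of 11. The shares of all probe sets under these settings were 18.3%, 7.93%, 8.04% and 9.73%, the last over EST probe sets. The count lower (4) became 1 of 48 as deposited, and 14, 0, 13 and 1 under the same settings after that. The shares of all probe sets were 3.97% as deposited and then 17.1%, 6.87%, 8.16% and 8.87%. The median log2 difference (-0.21) was 0.18 as deposited and -0.47 with EST probe sets. For the carcinoid against 8 weeks, the higher count (3 of 48) became 8 of 51 as deposited. It became 12 of 86, 1 of 20 and 10 of 161 under the lower floor, the higher floor and value plus floor. It was 1 of 31 without broadly expressed members and 1 of 9 with EST probe sets. Counted as broadly expressed were the interleukin receptor group, the C1q-named genes that are not subunits, Fcgrt, and Cd genes outside the lymphocyte and myeloid groups. The label is loose, because this set includes the B cell gene Cd72. The shares of all probe sets were 25.4% as deposited, 18.5%, 9.53% and 9% under the floor settings and 10.9% with EST probe sets. The lower count (5) became 2 as deposited and 0 with EST probe sets, against 3.63% and 10.3% of all. Under the lower floor, the higher floor and value plus floor it became 17, 0 and 15, against 18.3%, 8.24% and 8.3%. With the median of a gene's probe sets it was 3 of 40. The median (-0.24) was 0.29 as deposited and -0.58 with EST probe sets. For the carcinoid against 16 weeks, the higher count was 3 of 45. Under the same floor settings it became 8 of 78, 1 of 23 and 9 of 161, against 14.2%, 2.71% and 5.24% of all. It was 1 of 27 without broadly expressed members. With EST probe sets it was 1 of 10, against 6.83%. The lower count (4) became 12 and 2 under the lower and higher floor, against 13.9% and 2.96% of all. It was 2 of 37 with 1 probe set per gene and 0 of 37 with the median of a gene's probe sets. Without broadly expressed members it was 2 of 27, and with EST probe sets 0, against 5.73% for the latter. No share of all probe sets is given for the settings by gene or without broadly expressed members. A higher floor, a single value per gene and subsets of probe sets leave fewer values to count. The causes of the other changes were not tested.

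Many members lie near the floor, where the signal over background limits every fold. The 56 differences or bounds of at least 2-fold had 262 values under the alternatives. Of these, 216 stayed near the main value, 46 moved and 0 changed direction. Changing the floor or adding it to each value cannot reverse a difference, so those settings could not change a direction. As deposited, no measured difference above 1.53-fold turned, so the unchanged directions say little about these values. Differences under 2-fold are not in this count. Among measured differences against 8 weeks, 16 of 48 at 16 weeks and 18 of 48 in the carcinoid had the other sign as deposited.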
